A study of Mus musculus with 12 samples.

Results

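Of the 53801 genes in the count table, 6 are described here, all in or beside the Serpina cluster of mouse chromosome 12. Serpina11, Serpina9, Serpina3f, Serpina3g and Serpina3n encode clade A serpins, and Gm28577 is a long noncoding RNA gene that overlaps Serpina11 and Serpina9. They were chosen by symbol for their place near Serpina11, after the counts of Atg5-knockout and control eosinophils had been compared in these same libraries, so the values of that contrast are given below as a description without a test. The 12 RNA-seq libraries hold eosinophils of 2 sources, bone marrow and blood, with 3 libraries for each genotype and source. The Atg5-knockout mice carried Atg5 flox/flox, eoCre, in which the eosinophil peroxidase gene Epx drives the recombinase, and Il5tg, in which the Cd3d promoter drives interleukin-5. The control mice carried eoCre and Il5tg with no floxed Atg5, so both groups had the recombinase and an excess of interleukin-5, and no library shows eosinophils without them. Other blood cells, among them those positive for CD8a, CD90.2 or Ly6G, were removed during isolation. Age and sex were not given in the sources used here, nor whether each library came from a separate animal, so p-values measure only the spread between these libraries, which may be technical.

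Serpins are proteins that mostly act as suicide inhibitors of proteases: the protease cuts an exposed loop, the serpin folds around it, and both are trapped together. Clade A holds the secreted antitrypsin and antichymotrypsin relatives, which the liver makes in quantity, and in the mouse the antichymotrypsin branch has expanded into a row of closely related Serpina3 genes. Granulocytes store serine proteases and lysosomal cathepsins, and serpins made by blood cells are known for guarding the cells against their own enzymes.

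Total counts ran from 18885052 to 30270166 per library. All 10 eosinophil marker genes were counted in every group, and together they took 8.04% to 10.2% of the counts in bone marrow and 1.80% to 4.05% in blood. The blood libraries numbered 1 of both genotypes stood apart: each had the lowest level in its group of all 10 eosinophil markers and the highest level of all 10 T cell markers. In control blood library 1 the red cell markers also took 14.6% of the counts, against 0.538% and 1.42% in the other control blood libraries and at most 0.730% in Atg5-knockout blood, and 9 of 10 platelet markers were at the highest level of that group. The part of these cells in the results below was not tested. In bulk RNA, fewer cells of a type and less RNA per cell cannot be told apart. Atg5 was at 40.5 to 45.4 CPM (counts scaled to a common library total with TMM factors, the unit of all levels below) in control and 30.6 to 33.9 in Atg5-knockout bone marrow, a log2 fold change of -0.44 (edgeR adjusted p = 0.157). In blood it was at 40.1 to 58.8 CPM in control and 36.7 to 52.5 in Atg5-knockout libraries, a log2 fold change of -0.0079 (edgeR adjusted p = 1). These counts sum all exons of Atg5, so they do not check the deletion of a part of the gene.

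The promoter side of Serpina11, Serpina3f and Serpina3g is shown because these are the members with a start site in the sequence table and over 100 counts in all. The 250 bases before the first RefSeq start site listed were read 5′ to 3′ along each gene from GRCm38.p6, the build of the counts. Serpina11 is at chr12:103989958-103990207 on the minus strand, Serpina3f at chr12:104214294-104214543 on the plus strand and Serpina3g at chr12:104235897-104236146 on the plus strand. Capitals mark the letters TTCNNNGAA, a palindrome that has the form of the sites bound by STAT factors, which act downstream of interleukin-5.
Serpina11: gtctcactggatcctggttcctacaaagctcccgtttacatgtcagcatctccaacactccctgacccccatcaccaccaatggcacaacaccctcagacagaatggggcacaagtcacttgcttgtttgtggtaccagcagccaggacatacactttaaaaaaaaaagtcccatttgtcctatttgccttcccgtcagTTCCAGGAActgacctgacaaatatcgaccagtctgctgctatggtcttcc
Serpina3f: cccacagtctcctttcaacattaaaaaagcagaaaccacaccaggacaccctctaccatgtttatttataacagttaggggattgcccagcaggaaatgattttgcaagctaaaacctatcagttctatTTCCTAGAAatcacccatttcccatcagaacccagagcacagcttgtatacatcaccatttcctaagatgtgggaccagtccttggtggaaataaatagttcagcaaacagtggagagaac
Serpina3g: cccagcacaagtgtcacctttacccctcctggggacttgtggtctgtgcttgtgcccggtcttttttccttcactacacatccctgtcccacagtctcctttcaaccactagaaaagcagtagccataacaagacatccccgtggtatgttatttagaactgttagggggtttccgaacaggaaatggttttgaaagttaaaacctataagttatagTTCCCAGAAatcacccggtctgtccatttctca
The capitals began 51 bases before this start site in Serpina11, 121 in Serpina3f and 33 in Serpina3g. Serpina11 and Serpina3f each have a second RefSeq start site, and the same letters began 65 and 210 bases before it. The window of Serpina3n, the fourth member in the table, did not hold these letters, and 7.02% of 32851 RefSeq windows of the same length did. Of the other 5 motifs searched on both strands, CCAAT was in the Serpina11 window (33.8% of windows), TATAAA in that of Serpina3f (12.4%) and a 10-letter NF-kappaB motif in those of Serpina3g and Serpina3n (1.41%). Neither GATAA (22.6%) nor a 10-letter interferon response motif (2.98%) was in any of the 4 windows, and no motif overlapped the capitals. Aligned end to end, the 3 printed windows shared between 43.2% and 53.6% of their bases by pair. The share of unrelated windows was not computed. These shares do not show likeness over a short stretch. In Serpina3f and Serpina3g, at 53.2%, the letters aaaacctat stand shortly before the capitals and atcaccc directly after them. The matches in these near relatives are therefore not taken as independent, and a common origin was not tested. All motif matches are matches of letters and not sites of binding, which was not measured here. No window was at hand for Serpina9 or Gm28577.

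In the annotation used for counting, Serpina11 has 1638 exon bases at chr12:103980243-103989957, Gm28577 has 741 at chr12:103984792-103996579 and Serpina9 has 3674 at chr12:103994743-104013755, all on the minus strand. Gm28577 shares 669 exon bases with Serpina11 and its remaining 72 with Serpina9, so no base of it is its own. Reads that overlap the exons of more than 1 gene were not counted, so Gm28577 could not receive a count, and its 0 in all 12 libraries is no measure of its level. For the same reason 40.8% of the exon bases of Serpina11 gave no counts, and its levels come from the other 969 bases. On the plus strand, Serpina3f (chr12:104214544-104221129), Serpina3g (chr12:104236245-104241939) and Serpina3n (chr12:104406729-104414329) start between 225 and 417 kb from the start of Serpina11 and share no exon base with another member.

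**Figure D1:**
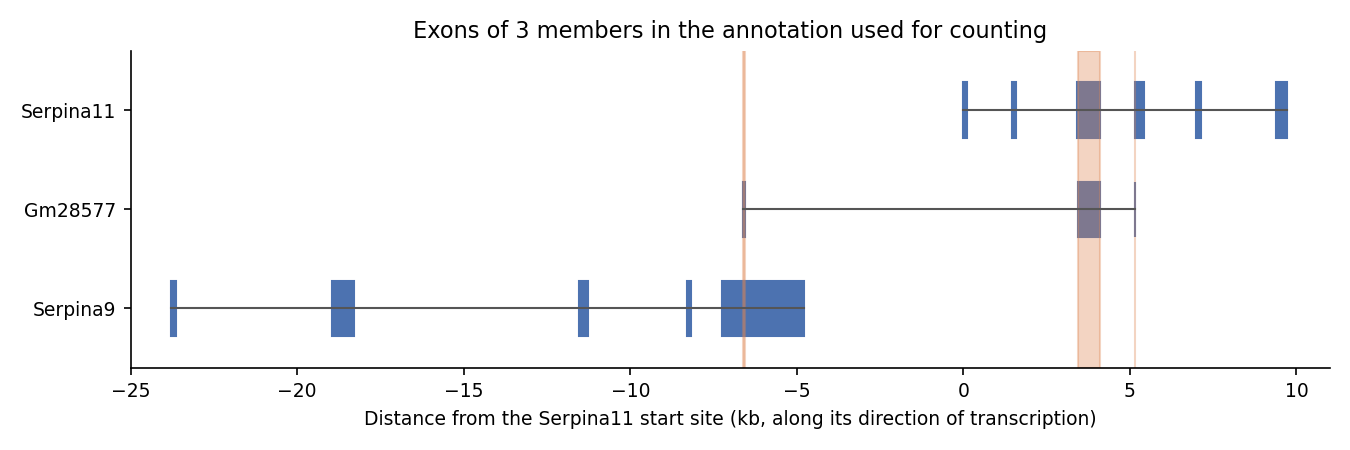
Exons of Serpina11, Gm28577 and Serpina9 (blue boxes) against the distance from the Serpina11 start site in kb along its direction of transcription, with the bases of Gm28577 shaded over all 3 genes. The shading covers 669 exon bases of Serpina11 and 72 of Serpina9, and Gm28577 has no exon base outside it.

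Close relatives in the cluster may also limit the counts, since reads that mapped to several places were left out. In the longest GENCODE M39 transcript of each gene, matches of at least 100 bases and 95% identity to another gene covered 47.2% of the bases of Serpina3g and 27.3% of Serpina3f. The gene that held the most was Gm56487 for Serpina3g and Serpina3h for Serpina3f. Matches were not separated by their place in the genome, so how many reads they kept from being placed is not known. For Serpina9 such matches covered 3.3% and for Serpina3n none, and for Serpina11 they covered 25%, with Gm28577 as the gene that held the most. Levels of Serpina3g and Serpina3f are therefore uncertain where a read could not be placed. The liver antitrypsin genes Serpina1a to Serpina1e, which match other genes over 83.3% to 100% of their bases, had no count in any library. Of all 28 Serpina genes of the cluster, 18 had no count, 5 had 1 to 10 over all libraries and 5 had more than 10. Those 5 were Serpina11 with 14880 counts, Serpina3g with 4029, Serpina9 with 278, Serpina3f with 189 and Serpina10 with 11.

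Serpina11, a clade A serpin whose target protease is not well known, was the most abundant member in control eosinophils and far lower in Atg5-knockout eosinophils of both tissues. In bone marrow it had 51.3, 55.7 and 50.4 CPM in the control libraries and 4.33, 3.66 and 4.27 CPM in the Atg5-knockout libraries. The 2 groups did not overlap, and the lowest control library was 11.6 times the highest Atg5-knockout library. The fitted log2 fold change was -3.71 with a standard error of 0.13, from a mean of 52.5 ± 2.80 to 4.09 ± 0.372 CPM (SD, n = 3). In blood it had 70.4, 160 and 193 CPM in the control and 10.5, 21.9 and 20.4 CPM in the Atg5-knockout libraries. Here too the groups did not overlap, although the library numbered 1 was the lowest of its group in both genotypes. The log2 fold change in blood was -2.98 with a standard error of 0.42, and -3.04 (standard error 0.20) without the libraries numbered 1.

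Serpina9, known as a serpin of germinal center B cells, lies next to Serpina11 and differed in the other direction. Its bone marrow counts were 4, 6 and 3 in the control and 62, 38 and 34 in the Atg5-knockout libraries, which is 0.122, 0.228 and 0.0994 CPM against 2.11, 1.20 and 1.25 CPM. The groups were apart by a factor of 5.26 between their nearest libraries, with a log2 fold change of 3.31 and a standard error of 0.48. It passed the filter on low counts in bone marrow through the Atg5-knockout group alone. In blood the counts were 0, 20 and 11 in the control and 22, 41 and 37 in the Atg5-knockout libraries, or 0, 0.880 and 0.540 CPM against 0.943, 1.85 and 1.89 CPM. The control libraries alone would not have passed the filter in blood either. The nearest blood libraries of the 2 genotypes differed by a factor of only 1.07, and the log2 fold change was 1.69 with a standard error of 0.94. It was 1.40 (standard error 0.62) without the blood libraries numbered 1.

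The 2 neighbours were also set against each other within each library. Counts of Serpina9 were 0.197% to 0.410% of those of Serpina11 in control bone marrow and 29.3% to 48.8% in Atg5-knockout bone marrow. In blood they were 0% to 0.551% in the control and 8.47% to 9.25% in the Atg5-knockout libraries. Serpina11 stayed ahead of Serpina9 by counts in all 12 libraries.

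**Figure D2:**
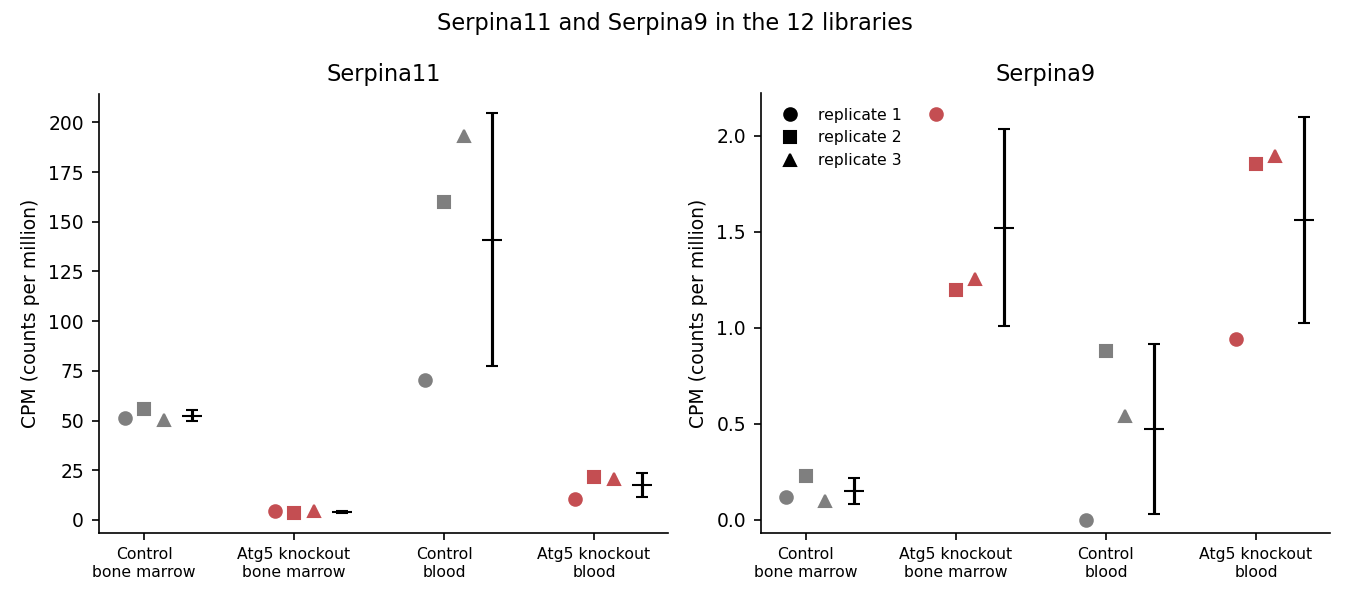
Levels of Serpina11 (left) and Serpina9 (right) in CPM by genotype and tissue, with 1 point per library, and the mean and SD of the 3 libraries beside them. Control libraries of Serpina11 lie between 50.4 and 193 CPM and Atg5-knockout libraries between 3.66 and 21.9, while Serpina9 is at most 0.880 CPM in control and at least 0.943 CPM in Atg5-knockout libraries.

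Since Serpina9 is known from B cells, the level of B cell markers is given beside it. The 12 markers took 0.0402% to 0.0415% of the counts in control and 0.0403% to 0.0434% in Atg5-knockout bone marrow. In blood they took 0.0164% to 0.114% in control and 0.0284% to 0.232% in Atg5-knockout libraries, the highest in each case in the library numbered 1. Rgs13, a germinal center gene, had no count in any library. The part of B cells in the level of Serpina9 was not tested.

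Serpina3g, known as Spi2A, an inhibitor of lysosomal cathepsins in the cytosol of blood cells, did not separate the genotypes. Bone marrow levels were 25.2, 11.7 and 12.99 CPM in the control and 10.6, 18.1 and 15.3 CPM in the Atg5-knockout libraries. Blood levels were 15.3, 5.06 and 6.88 CPM in the control and 19.2, 6.23 and 5.47 CPM in the Atg5-knockout libraries. The groups overlapped in both tissues, with log2 fold changes of -0.21 (standard error 0.26) in bone marrow and 0.21 (standard error 0.57) in blood. The sign in bone marrow turned without the control library numbered 1, to 0.21, and in blood without the Atg5-knockout library numbered 1, to -0.62.

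Serpina3f, a near relative of Serpina3g, was counted at a low level. Its bone marrow counts were 14, 13 and 7 in the control and 14, 14 and 15 in the Atg5-knockout libraries, with a log2 fold change of 0.32 (standard error 0.45). In blood they were 10, 7 and 6 in the control and 71, 16 and 2 in the Atg5-knockout libraries, and the groups overlapped. The log2 fold change in blood was 1.70 with a standard error of 1.02, and 0.059 without the Atg5-knockout library numbered 1. That library also had the highest share of T cell marker counts of all, 0.0288%, against at most 0.00468% in the other Atg5-knockout blood libraries. The part of other cells in the level of Serpina3f or Serpina3g was not tested.

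**Figure D3:**
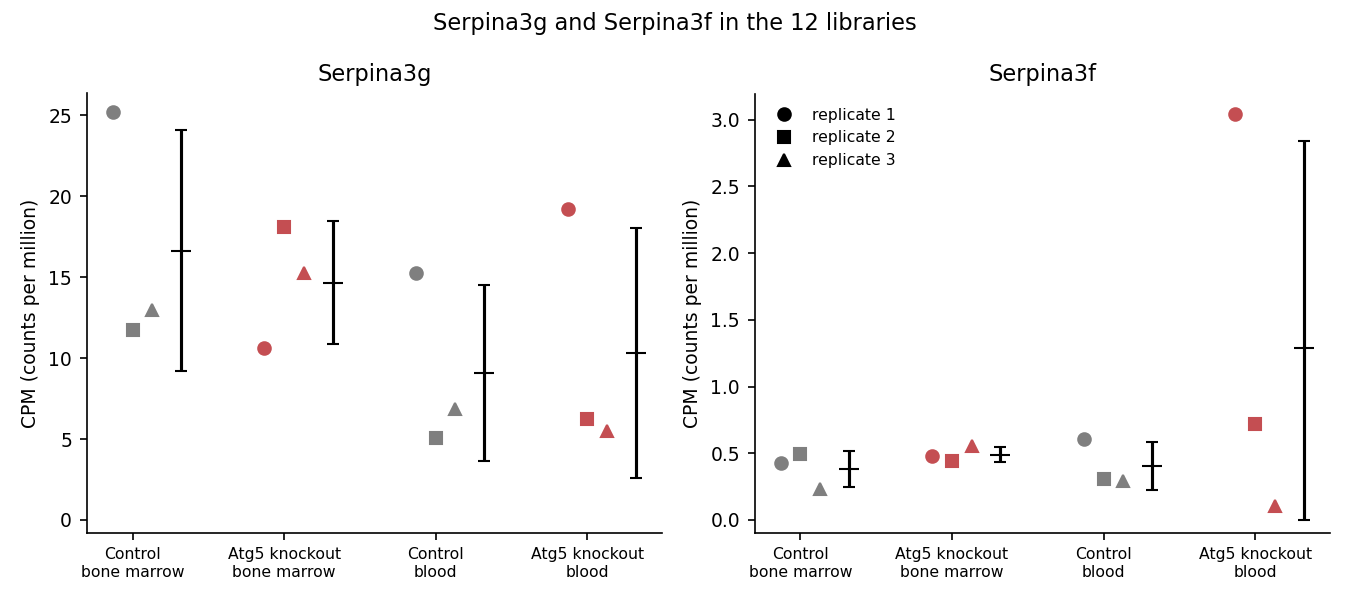
Levels of Serpina3g (left) and Serpina3f (right) in CPM by genotype and tissue, with 1 point per library, and the mean and SD of the 3 libraries beside them. In blood the library numbered 1 of each genotype is the highest for both genes, up to 19.2 CPM for Serpina3g and 3.04 CPM for Serpina3f.

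Serpina3n, an acute phase serpin that inhibits granzyme B and elastase, had 8 counts in 1 Atg5-knockout bone marrow library, the one numbered 2, and 2 counts in control blood library 2. It had 0 counts in control bone marrow and in Atg5-knockout blood, which allows up to 0.0336 and 0.0461 CPM at a floor of 3 counts over the group. It did not pass the filter in any comparison.

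Groups that did not overlap were seen for Serpina11 and Serpina9 in both tissues, and for 14.4% of all genes tested in bone marrow and 7.58% in blood. These counts come from the contrast that the members were chosen with, and nothing is read from them. Whether the genotype difference of a member differed between tissues was not tested.

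Eosinophils from blood and from bone marrow, where they form, were compared within each genotype, a contrast that did not enter the choice of members. The Methods give a density centrifugation and a lysis of red cells in water for blood alone. Differences between source and isolation therefore cannot be told apart, and rise and fall between tissues mean only higher and lower in blood. Serpina11 was higher in blood than in bone marrow in both genotypes. In control mice it went from 50.4 to 55.7 CPM in bone marrow to 70.4 to 193 CPM in blood, a log2 fold change of 1.41 with a standard error of 0.32 (edgeR adjusted p = 0.00976). In Atg5-knockout mice it went from 3.66 to 4.33 CPM to 10.5 to 21.9 CPM, a log2 fold change of 2.12 with a standard error of 0.29 (edgeR adjusted p = 0.00046). The blood libraries lay above all bone marrow libraries in both genotypes, as they did for 23.5% of 13669 genes tested in control and 27.7% of 13853 in Atg5-knockout mice. Genes that passed the test made up 34.2% of all in control mice, 16.2% of all being higher in blood. In Atg5-knockout mice 47.6% passed, 23.5% of all being higher in blood. Whether the rise of Serpina11 differed between the genotypes was not tested.

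The other members did not pass between tissues. Serpina3g had a log2 fold change of -0.90 in control mice (standard error 0.44, edgeR adjusted p = 0.151) and of -0.49 in Atg5-knockout mice (standard error 0.45, edgeR adjusted p = 0.399). Both values moved with single libraries. Without the blood library numbered 1, which had the highest Serpina3g level of the blood libraries in each genotype, it fell by 1.49 in control mice (edgeR adjusted p = 0.00705) and by 1.31 in Atg5-knockout mice (edgeR adjusted p = 0.0015). It was -0.48 (edgeR adjusted p = 0.487) without control bone marrow library 1, the highest of all 12, and -0.19 (edgeR adjusted p = 0.741) without Atg5-knockout blood library 3. In control mice it also passed with no filter on low counts (-0.95, edgeR adjusted p = 0.0219) and in a fit blocked on the replicate number (-0.96, edgeR adjusted p = 0.0108). Serpina3f had a log2 fold change of 0.042 in control (edgeR adjusted p = 0.964) and 1.42 in Atg5-knockout mice (edgeR adjusted p = 0.215). The latter was -0.20 without the Atg5-knockout blood library numbered 1 and 1.95 (edgeR adjusted p = 0.0276) without the one numbered 3. Serpina9 had 0.049 in Atg5-knockout mice (standard error 0.43, edgeR adjusted p = 0.934). In control mice Serpina9 did not pass the filter and was not tested.

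Levels were compared between the members per kb of exon that no other gene shares. Serpina11 led in control bone marrow with 54.2 ± 2.89 CPM per kb (SD, n = 3), followed by Serpina3g at 7.91 ± 3.54, Serpina3f at 0.168 ± 0.0594 and Serpina9 at 0.0416 ± 0.0191. No 2 neighbours in this order overlapped. In Atg5-knockout bone marrow Serpina3g came first with 6.97 ± 1.80 CPM per kb, ahead of Serpina11 with 4.22 ± 0.384. There Serpina9 at 0.422 ± 0.142 also stood above Serpina3f at 0.214 ± 0.0248, and again no neighbours among these 4 overlapped. In blood Serpina11 led in both genotypes, with 146 ± 65.4 CPM per kb in control and 18.2 ± 6.36 in Atg5-knockout mice. Serpina3g followed with 4.30 ± 2.58 and 4.89 ± 3.67, and below it Serpina3f and Serpina9 overlapped in both genotypes.

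Over all 12 libraries, the genes whose log2 CPM ran most like that of a member were sought among 14712 genes. For Serpina11 they were Adgrg6, an adhesion G protein-coupled receptor (Pearson r = 0.944), Fgd6, a guanine nucleotide exchange factor (r = 0.943), and Pira13, a paired immunoglobulin-like receptor (r = 0.928). All 3 had lower mean levels in Atg5-knockout than in control libraries of each tissue, such as 5.44 against 16.3 CPM for Fgd6 in bone marrow. For Serpina9 they were Gm5905 (r = 0.941), Gm34964 (r = 0.88) and Tmem181b-ps (r = 0.878), all with higher means in Atg5-knockout libraries. For Serpina3f they were Entrep3 (r = 0.929), Adgrl1 (r = 0.861) and Ly6c1 (r = 0.86), and for Serpina3g Lratd2 (r = 0.925), Fnip2 (r = 0.922) and Cdon (r = 0.905). The 12 points share genotype, tissue and scaling, so these values describe likeness in these libraries only. None of the 12 genes lies on chromosome 12.

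Genes around the cluster were compared between the genotypes in the same fits. Within 2 Mb of the Serpina11 start site there are 121 other genes, of which 27 were tested in bone marrow and 27 in blood. In bone marrow 1 passed, Ifi27l2a, an interferon-inducible gene at -546 kb (minus meaning towards lower coordinates), from a mean of 14.1 CPM in control to 24.4 in Atg5-knockout libraries. Its log2 fold change was 0.76 with a standard error of 0.13 (edgeR adjusted p = 0.0238). The call was lost when any library but the control library numbered 1 was left out. It is 3.7% of the 27, beside 0.348% of all 13781 genes tested in bone marrow, and DESeq2 also passed 1. An unadjusted p under 0.05 was seen for 8 of the 27, or 29.6%, beside 9.67% of all genes. In blood, where 0.0371% of 13460 genes passed and 2.58% had an unadjusted p under 0.05, none of the 27 did either with edgeR and none passed with DESeq2, and Ifi27l2a stood at 0.34 (edgeR adjusted p = 1). The nearest coding genes tested on either side were Ppp4r4, at 1.84 in bone marrow (standard error 0.55, edgeR adjusted p = 0.251), and Dicer1, which cuts microRNA precursors, at 0.056 (standard error 0.10, edgeR adjusted p = 0.898). In blood Dicer1 stood at -0.19 (standard error 0.22, edgeR adjusted p = 1), and Ppp4r4 was not tested. The median log2 fold change of the 27 was 0.014 in bone marrow and -0.004 in blood, beside 0.003 and 0.006 over all genes tested.

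**Figure D4:**
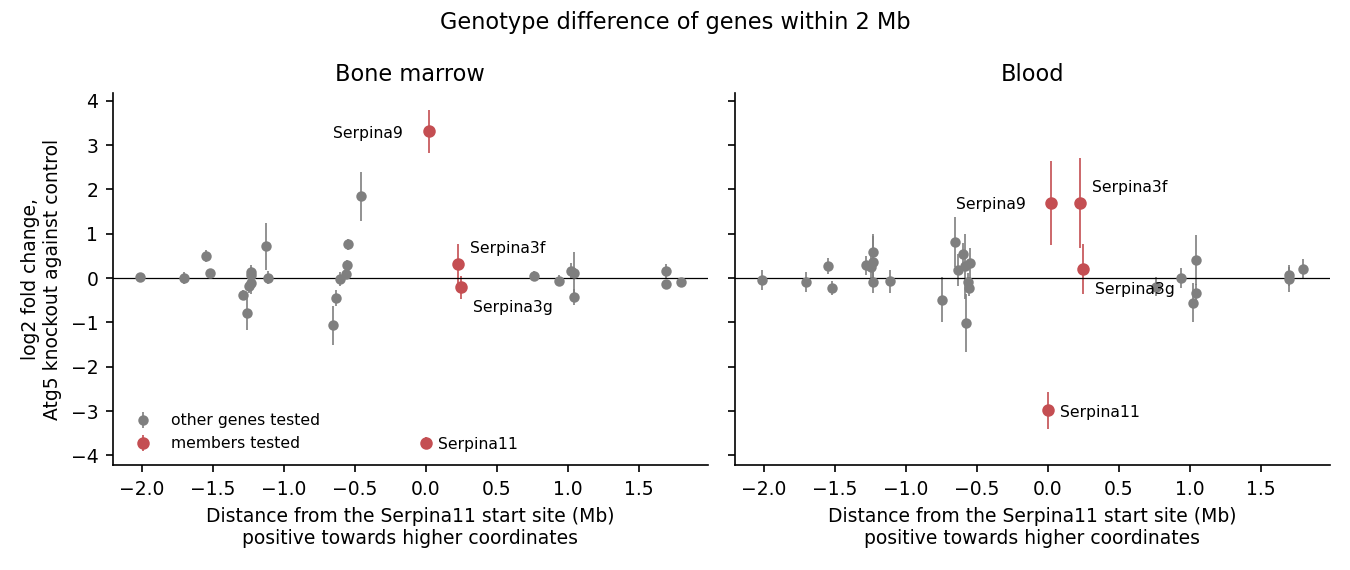
Log2 fold change of Atg5-knockout against control in bone marrow (left) and blood (right) against distance from the Serpina11 start site in Mb, with the standard error as a bar. Serpina11 lies at -3.71 and -2.98 and Serpina9 at 3.31 and 1.69, while the other 27 genes tested in each tissue lie between -1.06 and 1.84 in the left panel and between -1.02 and 0.82 in the right.

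On the whole of chromosome 12, 6 of 490 genes other than the members passed in bone marrow, or 1.22%, beside 0.348% of all genes tested. Arg2, which encodes the mitochondrial arginase, rose by 4.12 (standard error 0.15, edgeR adjusted p = 2.06e-08) at -24.9 Mb from Serpina11. Gm48780, which lies within the span of Arg2, rose by 4.27 (standard error 0.66, edgeR adjusted p = 0.0176), and the counting used no strand to separate their reads. Fut8, a fucosyltransferase, fell by 0.73 (standard error 0.13, edgeR adjusted p = 0.0317). Cep128, a centriole gene, rose by 0.66 (standard error 0.11, edgeR adjusted p = 0.0265), and Ifi27l2a, given above, is also among the 6. The count ran from 1 to 12 when 1 library was left out, with 12 without the control library numbered 1. It was 1 without control library 3 or any Atg5-knockout library.

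Of 64 other serpin genes in the table, 27 had a count, and 11 were tested between genotypes in bone marrow and 13 in blood. None passed, beside 0.348% of all genes tested in bone marrow and 0.0371% in blood, and DESeq2 passed none either. At such shares a list of this size could hold no call whatever its genes, so nothing is read from these counts. An unadjusted p under 0.05 was seen for 1 of the 11 in bone marrow, Serpinb9 (9.09%), beside 9.67% of all genes. In blood it was seen for none, beside 2.58%. Between tissues 7 of 13 were higher and 3 lower in blood of control mice, and 7 of 14 higher and 3 lower in Atg5-knockout mice. These are 76.9% and 71.4% of those tested, beside the 34.2% and 47.6% of all genes given above. Without any 1 of the 3 control bone marrow libraries 6 were called in control mice, and with 1 library left out in turn 7 to 13 were called in Atg5-knockout mice. Their median log2 fold change was 0.881 in control and 0.902 in Atg5-knockout mice, beside -0.003 and -0.01 over all genes.

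Among those that rose in blood, Serpinb9, the inhibitor of granzyme B, went from 0.881 ± 0.229 to 13.7 ± 5.18 CPM in control mice, a log2 fold change of 3.93 (standard error 0.40, edgeR adjusted p = 0.000181). Serpinb9b had no count in Atg5-knockout bone marrow and a mean of 3.90 CPM in blood, at least 115-fold higher by a floor of 3 counts over the group. Serpinb10, Serpinb6a and Serpinb6b also rose in both genotypes, Serpinb8 passed in control mice and Serpinc1, which encodes antithrombin, in Atg5-knockout mice. Among those that fell, Serpinf1, which encodes pigment epithelium-derived factor, went from 13.5 ± 1.74 to 0.843 ± 0.169 CPM in control mice (log2 fold change -4.00, standard error 0.30, edgeR adjusted p = 3.37e-05). Serpine2, an inhibitor of thrombin, and Serpinh1, a chaperone of collagen, fell in both genotypes. Serpinb2 and Serpinb1a, the latter an inhibitor of neutrophil elastase, had the highest CPM of the other serpins tested, not scaled by length. Neither passed in either genotype. At log2 fold changes of 1.41 and 2.12, Serpina11 lay within the range of the other serpins.

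**Figure D5:**
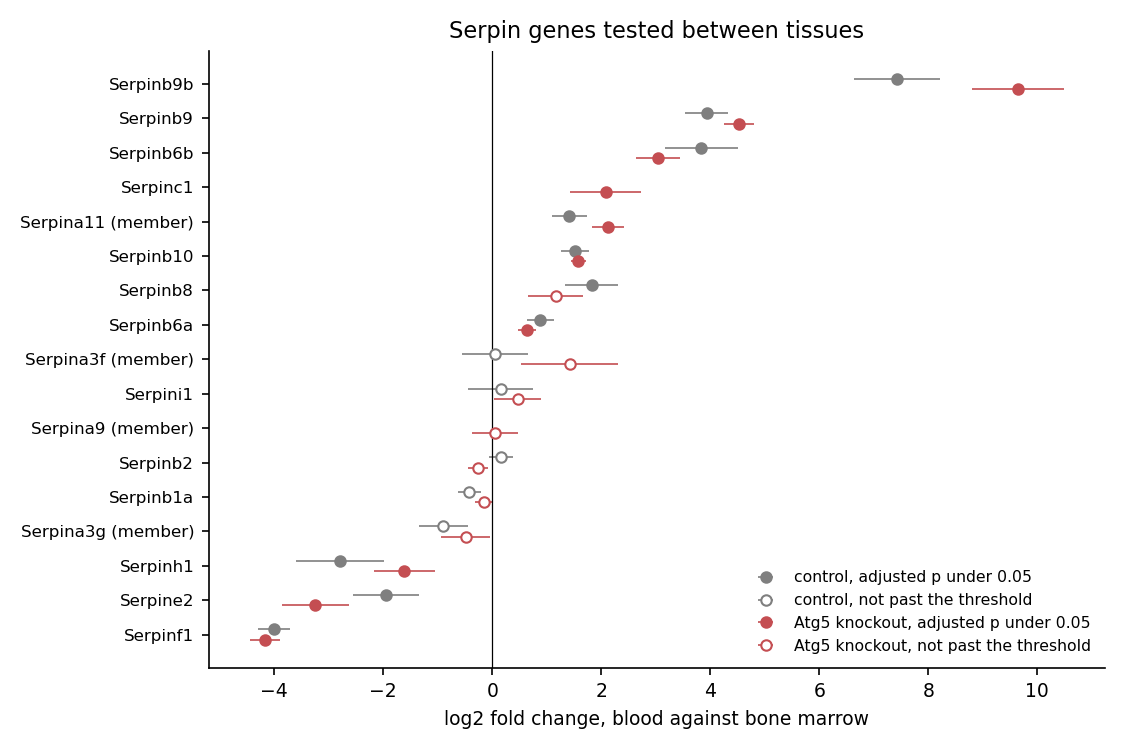
Log2 fold change of blood against bone marrow for serpin genes tested in control (grey) or Atg5-knockout mice (red), with the standard error as a bar and filled points at an adjusted p under 0.05. Serpina11 is filled in both genotypes at 1.41 and 2.12, the other members are open, and the Atg5-knockout point of Serpinb9b rests on a group without a count, so its place depends on the prior count of the fit.

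Serine proteases and lysosomal cathepsins were listed in the same way. Of 43 serine proteases in the table, 24 were tested in bone marrow and 25 in blood, and of 13 lysosomal cathepsins, 12 and 13. None passed between genotypes with edgeR or DESeq2, beside 0.348% of all genes in bone marrow and 0.0371% in blood with edgeR. At such shares lists of this size could hold no call whatever their genes. In bone marrow 3 serine proteases (12.5%) and 3 cathepsins (25%) had an unadjusted p under 0.05, beside 9.67% of all genes, and in blood 1 serine protease (4%) and no cathepsin, beside 2.58%. Between tissues 6 of 26 serine proteases rose and 10 fell in control mice, and 9 of 27 rose and 10 fell in Atg5-knockout mice, which is 61.5% and 70.4% called beside 34.2% and 47.6% of all genes. Elane, the neutrophil elastase of azurophil granules, fell by 9.11 on the log2 scale from bone marrow to blood of control mice (standard error 0.30, edgeR adjusted p = 2.16e-06). Prtn3, a protease of the same granules, fell by 6.81 (standard error 0.32, edgeR adjusted p = 7.59e-06). Gzmb, granzyme B, rose from 0.222 ± 0.0281 to 32.6 ± 15.9 CPM (log2 fold change 7.14, standard error 0.45, edgeR adjusted p = 1.83e-05). Of the genes listed as lysosomal cathepsins, Lgmn among them, 6 of 12 rose in control and 7 of 13 in Atg5-knockout blood and none fell. That is 50% and 53.8% called beside the same shares of all genes. Which of them Serpina3g can inhibit was not tested. An example is Ctss, from 159 ± 3.01 to 363 ± 57.3 CPM in control mice (log2 fold change 1.18, standard error 0.17, edgeR adjusted p = 0.00106). Median log2 fold changes in control mice were -0.307 for the serine proteases and 0.861 for the cathepsins, and -0.222 and 0.868 in Atg5-knockout mice. Neutrophil markers took 1.72% to 2.57% of the counts in bone marrow and 0.627% to 1.62% in blood, and their part in these values was not tested.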

How the data were processed

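The deposited counts are raw read counts per gene for 12 RNA-seq libraries, which the authors made by aligning 100 bp single-end reads of stranded mRNA libraries with HISAT2 2.2.1 and counting them with featureCounts 2.0.1, without normalization. The header of the table names Ensembl release 92 on GRCm38 and no option for strand, multimapping or overlapping reads, so antisense genes were not separated and shared reads were left out. The Methods name a GRCm39 annotation instead. Coordinates are those of the table, and GENCODE M39 gave symbols and transcripts, matched with BLAST 2.17.0. Promoter windows came from RefSeq on GRCm38.p6.

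Each comparison was fitted over all genes of its 6 libraries with edgeR 4.0.16 in R 4.3.3: TMM normalization, filterByExpr with at least 10 counts and a total of at least 15, the quasi-likelihood test with a prior count of 0.125 for fold changes, and Benjamini-Hochberg adjustment, with calls at an adjusted p under 0.05. The study used DESeq2, which was run here as an alternative (version 1.42.0). CPM for levels used TMM factors over all 12 libraries. The scripts were tested on simulated data. No pair of libraries of a group agreed within sampling noise. Standard errors were derived from the quasi-likelihood test and include the spread between libraries. The floor is 3 counts over a group and covers counting error only.

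The members and lists were chosen with earlier results of these data known. Named genes were the members, Atg5, other serpins, proteases and cathepsins called in any comparison (at most 8 of the lowest p each), called neighbours within 2 Mb and the flanking coding genes, called genes of chromosome 12, and the 3 genes most like each member by Pearson r. Serpinb2, Serpinb1a, the members' relatives without counts, the marker genes and the gene of lowest p in a list without calls were named after their values were seen, and only some of the genes under the rule are named, since values of a few are not reported here. The motifs were chosen after the values were seen.

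Whether replicate numbers pair libraries was checked by correlating their deviations from the mean of each group. In blood, libraries of the 2 genotypes with the same number deviated together (0.619, 0.365 and 0.387), so the numbers may pair them. With 3 libraries per group these values do not establish pairing, and neither the labels nor the Methods say what the numbers share. The blood libraries numbered 1 also stood apart in their marker genes, and the part of that in the correlations was not tested. In the other comparisons at least 1 of 3 correlations was below 0, so no pairing was taken from them. Between tissues of control mice they were 0.16, 0.174 and -0.0542. With 3 libraries per group, such values cannot exclude that libraries of the same number are paired.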

Additional observations from a re-analysis of the deposited data

How the results depend on the processing

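Alternatives were RLE factors, library size alone, DESeq2, no filter on low counts, at least 1 CPM in 3 libraries, a fit of all 12 libraries, the replicate block, a prior count of 2, other windows or lengths and leaving out each library. Leaving out both blood libraries numbered 1 was chosen after seeing the data. Outside the fits without 1 library, 202 values were taken as unchanged, 11 moved, 3 reversed and 2 passed the threshold where the value reported did not. For members between tissues, unchanged means the same direction and side of the threshold. For members between genotypes it means a move smaller than the replicates' spread, even where the sign turned. A count of calls close to the one reported was also taken as unchanged, such as 5 against 6 genes of chromosome 12. The rise of Serpina11 in blood passed in all alternatives run, from 1.11 to 1.45 in control and 1.87 to 2.14 in Atg5-knockout mice, and without 1 library from 1.13 to 1.74 and 1.93 to 2.38. Without 1 library, Serpina11 between genotypes ran from -3.75 to -3.63 in bone marrow and -3.31 to -2.69 in blood, Serpina9 from 3.00 to 3.71 and 1.14 to 2.47, Serpina3g from -0.40 to 0.21 and -0.62 to 0.81, and Serpina3f from 0.061 to 0.54 and 0.059 to 2.23.

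With the replicate block, 2 members passed between tissues in control mice, as with no filter, against 1, and without 1 library 1 to 3 did there and 1 to 2 in Atg5-knockout mice. In blood, where the numbers may pair the libraries, the genotype values in the Results come from fits without the block. The block changed no count of calls there. Its log2 fold changes were -2.93 for Serpina11, 2.06 for Serpina9, 1.05 for Serpina3f and 0.13 for Serpina3g. Without the block they were -2.98, 1.69, 1.70 and 0.21. In bone marrow it left 0 neighbours and 2 genes of chromosome 12 called, as did the 12 libraries, against 1 and 6. No filter gave 3 neighbours, 25 genes of chromosome 12 and 1 protease against 0, DESeq2 gave 12 genes of chromosome 12, and a window of 5 Mb gave 2 neighbours. Without 1 library, neighbours called ran from 0 to 1, genes of chromosome 12 from 1 to 12, and other serpins from 6 to 10 in control and 7 to 13 in Atg5-knockout mice. Serpina3f between tissues in control mice turned to -0.26 by library size alone and ran from -0.35 to 0.25 without 1 library, with -0.22 without control bone marrow library 3. In Atg5-knockout mice it ran from -0.20 to 1.95. Serpina9 there turned to -0.20 by library size alone and -0.012 with no filter, and ran from -0.11 to 0.35 without 1 library, being below 0 at -0.082 and -0.097 in 2 more of these fits. The causes were not tested. Counts under 100, as for Serpina9, Serpina3f and Serpina3n, limit what could be seen.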
